A study of Homo sapiens with 12 samples.

Results

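The Golgi glycosyltransferases are described here in A549 cells, a human lung adenocarcinoma line, with and without TGFβ. Members were chosen by gene symbol from 11 families: GALNT, GCNT, B3GNT, B3GALT, B4GALT, B4GALNT, MGAT, FUT, ST3GAL, ST6GAL (with ST6GALNAC) and ST8SIA. The symbols matched 88 of the 58830 rows of the expression table, and 71 of them reached a normalized count of 10 in 3 or more of the 12 libraries. Those 71 are the members described, out of 20456 genes that passed the same filter. The last matched symbol below the filter was FUT3, whose third-highest library had 9.59 normalized counts, and the first above it was ST8SIA6 with 11.8. ST8SIA6 and FUT6 passed through 1 group alone and so had to differ between groups.

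RNA was sequenced from 4 groups of 3 libraries, which the labels call biological repeats. They were the edited line with TGFβ, the edited line untreated, wild-type A549 with TGFβ and wild-type A549 untreated. The edited line, labelled Sm22mut, is an A549 derivative whose genotype is given as a knockout of the target site that links the microRNA miR-22 to SNAI1. TGFβ was given at 10 ng/mL, and all cells were sampled at day 5. Only 1 derivative was profiled, and what the edit changed cannot be told apart from what its derivation changed. P-values measure the spread between the repeats. "Treated" below means given TGFβ, and a treated library is set against an untreated one of the same line.

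Glycosyltransferases of the Golgi build the sugar chains of secreted and membrane proteins and of glycolipids, each adding a single kind of sugar in a single kind of linkage. GALNT enzymes start mucin-type O-glycans on serine and threonine, and MGAT enzymes set how many branches an N-glycan carries. GCNT, B3GNT, B3GALT, B4GALT and B4GALNT enzymes branch and lengthen the chains, and fucosyltransferases (FUT) and sialyltransferases (ST3GAL, ST6GAL, ST8SIA) cap them. Surface glycans change in epithelial cells given TGFβ, which drives them towards a mesenchymal state.

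The libraries held 84210775 to 111141708 reads. SNAI1, which encodes a repressor of epithelial genes, had 1406, 1214 and 1318 normalized counts in treated edited libraries, against 513, 499 and 432 in untreated edited ones. Wild-type SNAI1 values were 958, 897 and 768 in treated libraries, against 510.4, 400.4 and 576 in untreated ones. Between the lines, SNAI1 was called higher in the treated edited one, at a log2 fold change of 0.59 ± 0.13 (limma, adjusted p = 0.00685). In untreated cells it was not called different (-0.03 ± 0.13, adjusted p = 0.884). The edited microRNA site itself cannot be seen in gene counts, so these levels alone do not check the labels. The 6 epithelial markers (EPCAM, CDH1, KRT8, KRT18, KRT19 and KRT7) summed to 502527 to 576451 normalized counts in treated edited and 625511 to 648914 in untreated edited libraries. In wild type they summed to 486508 to 624465 in treated and 586425 to 605534 in untreated libraries. With TGFβ 5 of the 6 fell and KRT7 rose in each line, where 30.7% (edited) and 30.9% (wild type) of all genes fell. CDH1 fell by the most, at log2 fold changes of -1.73 ± 0.06 (edited) and -1.63 ± 0.06 (wild type). The 6 fibroblast markers summed to 1695 to 2016 in treated edited, 213 to 281 in untreated edited, 1200.5 to 1399 in treated wild-type and 145 to 187 in untreated wild-type libraries. The 8 alveolar type II markers summed to 765 to 2401 over all libraries, with SFTPA1 at 0 in every group. The 6 endothelial markers summed to 32.6 to 80.7 in treated and 115 to 185 in untreated libraries of the lines together, with KDR at 0 in both edited groups. They moved in opposite directions with TGFβ. PECAM1 was called lower in both lines and VWF in the edited line alone, while TEK was called higher in both. The 6 leukocyte markers summed to 49.5 to 80.2 in treated and 77.8 to 139 in untreated libraries, with CD3E or MS4A1 at 0 in every group. Fibroblast and other marker sums moved with TGFβ, and their part in the results below was not tested. All libraries came from A549 or its derivative, so the sums are no counts of cell types. In bulk RNA, a change in some cells and a change in every cell cannot be told apart.

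With TGFβ more members rose than fell in both lines. In the edited line 39 of 71 members rose, where 32.1% of all genes rose, and 15 fell, where 30.7% of all genes fell (limma, Benjamini-Hochberg adjusted p under 0.05 over 20456 genes). In wild type 39 members rose against 30.8% of all genes, and 17 fell against 30.9%. Changes of at least 2-fold were called upward in 27 members of the edited line (15.6% of all genes) and downward in 6 (10.7%), and in wild type upward in 21 (15.1%) and downward in 7 (9.85%). Both kinds of count include ST8SIA6 among the rises of the edited line and FUT6 among the falls of wild type. The filter took each through 1 group alone, so these 2 entries are no evidence of a response. The members' median log2 fold change was 0.66 in the edited line and 0.55 in wild type, beside 0.03 and 0.02 over all genes tested. Under quantile normalization the members' median in wild type was 0.34 and that of all genes -0.07.

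The log2 fold changes of the lines rest on separate libraries, but their calls do not. The calls came from a fit of all libraries together, with a shared spread for each gene. A call in either line could therefore depend on libraries of the other, and shared calls are not an independent repeat. Of the 39 members that rose in the edited line, 34 also rose in wild type (87.2%), out of 39 there (87.2%). Over all genes the shared rises were 77% of those in the edited line and 80.2% of those in wild type. Of the 15 members that fell in the edited line, 11 also fell in wild type (73.3%), out of 17 there (64.7%), beside 79.4% and 78.9% over all genes. Most members' calls were thus shared by the lines, as were those of most genes. Only MGAT3 was called in opposite directions, higher with TGFβ in the edited line and lower in wild type. Another 4 members rose and 4 fell in the edited line without a call in wild type, 5 rose and 5 fell in wild type without a call in the edited line, and 7 were called in neither. ST8SIA6 is among the rises of the edited line alone and FUT6 among the falls of wild type alone, where the filter fixed their direction. The shares of all genes that rose (32.1% in the edited line, 30.8% in wild type) and fell (30.7% and 30.9%) stand as background to each family's counts below. The families hold 3 to 14 members that passed, and with few members a count near these shares says nothing particular of a family.

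**Figure D1:**
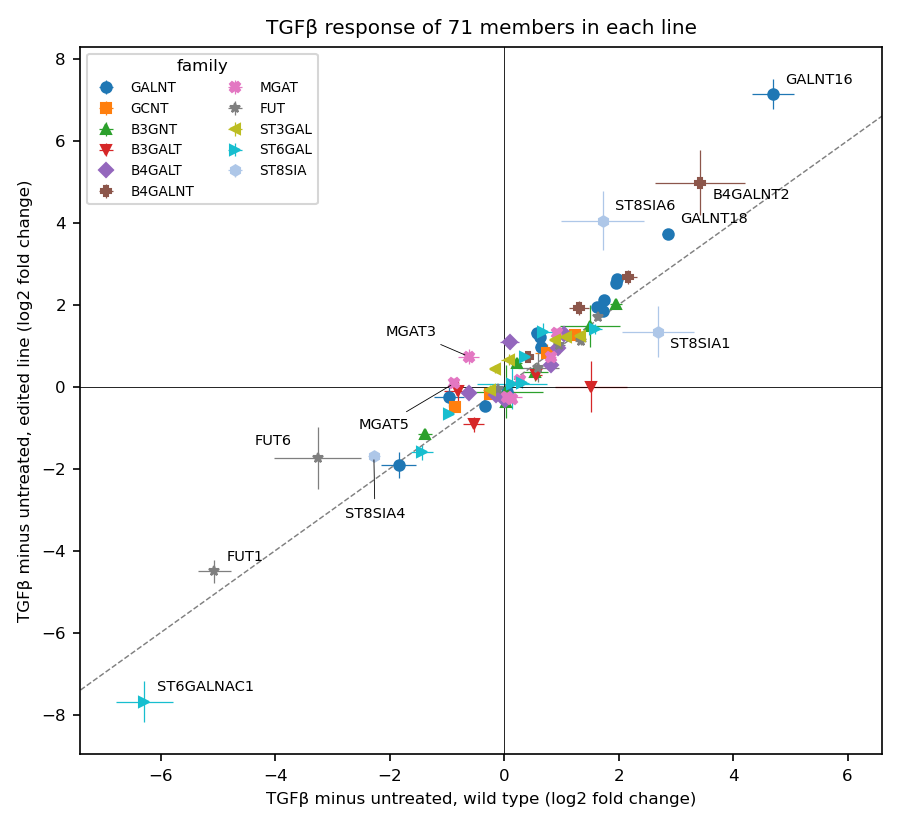
Log2 fold change with TGFβ in wild type (x) and in the edited line (y) for 71 members, with standard errors as bars and 1 marker shape per family; the dashed line marks equal responses. GALNT16 lies at the top right at 7.14 (edited) and 4.70 (wild type), and ST6GALNAC1 at the bottom left at -7.68 (edited) and -6.29 (wild type).

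**Figure D2:**
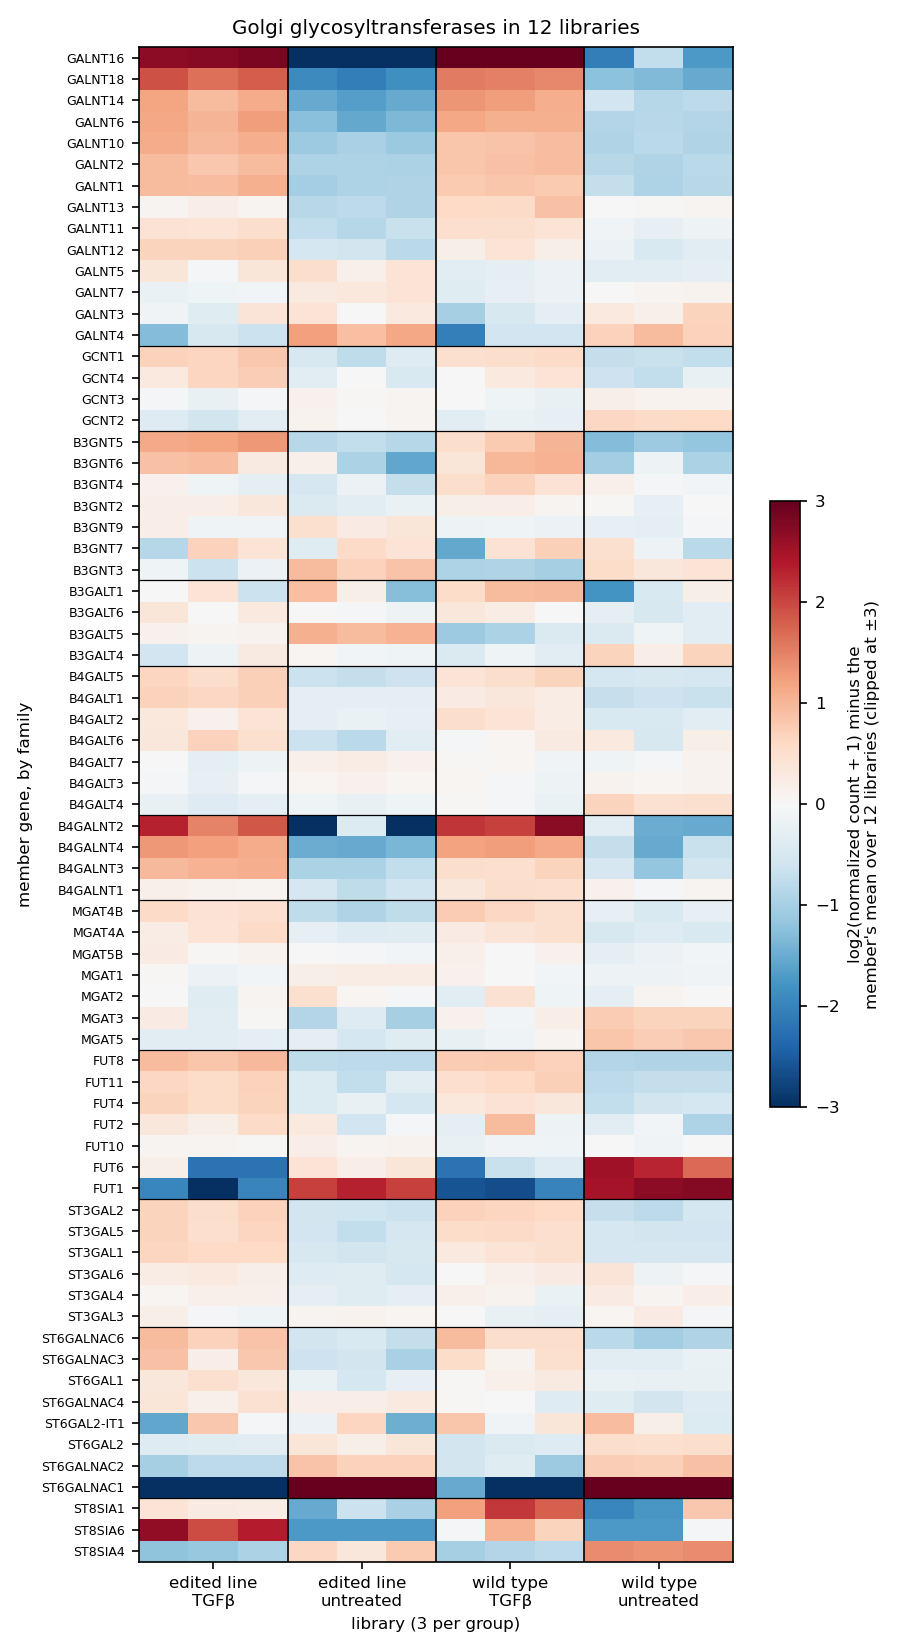
Log2(normalized count + 1) of each member in each library, less the member's mean over 12 libraries (red above, blue below, colours clipped at ±3), with members grouped by family and libraries by group. The rows of GALNT16, GALNT18 and B4GALNT2 are red and those of ST6GALNAC1 and FUT1 blue in the 6 treated libraries.

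The GALNT family, the polypeptide N-acetylgalactosaminyltransferases that commit a serine or threonine to a mucin-type O-glycan, mostly rose. Of its 14 members that passed the filter (17 matched), 10 rose (71.4%) and 2 fell in the edited line, and 10 rose (71.4%) and 3 fell in wild type. The same 10 rose in both lines: GALNT1, GALNT2, GALNT6, GALNT10, GALNT11, GALNT12, GALNT13, GALNT14, GALNT16 and GALNT18. The family's median log2 fold change was 1.58 in the edited line and 1.13 in wild type.

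GALNT16 (GRCh38 chromosome 14, 69259277 to 69357033, plus strand, GENCODE 29) showed the largest rise of the members. It had 134, 138 and 148 normalized counts in treated edited libraries, against 0 in each untreated edited one. Wild-type GALNT16 values were 177, 199 and 193 in treated libraries, against 3.99, 11.5 and 5.37 in untreated ones. Every treated library lay far above every untreated one. Against a floor of 3 reads per library (2.92 normalized counts) the treated edited mean was at least 47.8-fold higher, and in wild type the ratio of group means was 27.3. The fitted log2 fold change was 7.14 ± 0.37 in the edited line, which depends on the pseudocount because untreated libraries were at 0, and 4.70 ± 0.37 in wild type (adjusted p = 5.39e-11 and 1.14e-08). Its promoter window is shown because it belongs to the largest rise. It comes from RefSeq on GRCh38.p14, chr14:69259908-69260207, plus strand, and runs from 250 bases before to 50 after a RefSeq start. That start lies 881 bases downstream of the GENCODE start given above, so the window is inside the gene as GENCODE has it. It holds no CAGGTG or CACCTG, the E-box letters read by SNAI and ZEB repressors, so nothing is in capitals.
GALNT16: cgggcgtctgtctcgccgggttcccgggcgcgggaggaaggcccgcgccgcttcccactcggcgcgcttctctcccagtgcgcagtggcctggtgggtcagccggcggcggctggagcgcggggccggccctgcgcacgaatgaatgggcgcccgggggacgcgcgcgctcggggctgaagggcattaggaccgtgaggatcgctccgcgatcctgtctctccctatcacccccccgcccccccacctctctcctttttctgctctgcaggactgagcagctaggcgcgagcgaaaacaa

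GALNT18 had 4885, 4074 and 4545 normalized counts in treated edited libraries, against 345, 307 and 362 in untreated edited ones. Wild-type GALNT18 values were 3806, 3680.1 and 3534 in treated libraries, against 552, 521 and 452 in untreated ones. Treated and untreated libraries did not overlap, at log2 fold changes of 3.73 ± 0.09 in the edited line and 2.85 ± 0.09 in wild type (adjusted p = 7.3e-15 and 2.22e-13). GALNT14 had 10507, 8865 and 9953 normalized counts in treated edited libraries, against 1629, 1462 and 1618 in untreated edited ones. Wild-type GALNT14 values were 11632, 11007 and 9789 in treated libraries, against 3103, 2536 and 2674 in untreated ones. Its log2 fold change was 2.64 ± 0.09 in the edited line and 1.97 ± 0.09 in wild type. GALNT6, which glycosylates fibronectin, had 3853, 3504 and 4139 normalized counts in treated edited libraries, against 723, 589.9 and 681 in untreated edited ones. Wild-type GALNT6 values were 3859, 3604 and 3607 in treated libraries, against 934, 961 and 942 in untreated ones. GALNT6 too rose without overlap, by 2.53 ± 0.08 in the edited line and 1.96 ± 0.08 in wild type on the log2 scale.

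The members of the family with the highest levels per kilobase of exon in untreated wild type rose as well. GALNT10, which prefers peptides that already carry a sugar, had 69343, 62964 and 67767 normalized counts in treated edited libraries, against 15067, 16376 and 14906 in untreated edited ones. Wild-type GALNT10 values were 57400.2, 57788 and 61213 in treated libraries, against 17039, 18396 and 17162 in untreated ones. GALNT10 thus stood far higher in every treated library than in any untreated one. GALNT1, a widely expressed initiating enzyme, had 46303, 45806 and 50074 normalized counts in treated edited libraries, against 11761, 12585 and 12762 in untreated edited ones. Wild-type GALNT1 values were 41097, 42309.7 and 41332 in treated libraries, against 14537, 12688 and 13436 in untreated ones. GALNT2, the other widely expressed initiator, had 46176, 41640.0 and 45991 normalized counts in treated edited libraries, against 12539, 12553 and 12314 in untreated edited ones. Wild-type GALNT2 values were 42557, 44243 and 45740.4 in treated libraries, against 13473, 12803 and 13679 in untreated ones. The groups did not overlap for GALNT1 or GALNT2 in either line. Log2 fold changes were 2.11 ± 0.06 (edited) and 1.75 ± 0.06 (wild type) for GALNT10, 1.94 ± 0.06 and 1.62 ± 0.06 for GALNT1, and 1.84 ± 0.06 and 1.73 ± 0.06 for GALNT2, with adjusted p of at most 1.46e-13 (edited) and 1.43e-12 (wild type).

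Smaller rises were seen in GALNT11, which glycosylates NOTCH1, and in GALNT12. GALNT11 had 4431, 4390.0 and 4721 normalized counts in treated edited libraries, against 1969.5, 1831 and 2077 in untreated edited ones. Wild-type GALNT11 values were 4672, 4588 and 4376 in treated libraries, against 3056, 2796 and 2963 in untreated ones. These gave 1.20 ± 0.06 in the edited line and 0.63 ± 0.06 in wild type. GALNT12 had 1283, 1279 and 1325 normalized counts in treated edited libraries, against 557, 546 and 458 in untreated edited ones. Wild-type GALNT12 values were 904, 1069 and 909 in treated libraries, against 709, 584 and 634 in untreated ones. GALNT12 rose by 1.32 ± 0.10 in the edited line and 0.58 ± 0.10 in wild type. GALNT13, known from neuronal tissue, had 570.0, 617 and 567 normalized counts in treated edited libraries, against 298, 310.0 and 285 in untreated edited ones. Wild-type GALNT13 values were 813, 794 and 983 in treated libraries, against 536, 548.7 and 566 in untreated ones. Its change was 0.97 ± 0.10 in the edited line and 0.64 ± 0.10 in wild type, and both passed the test.

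GALNT4, which acts on peptides that already carry N-acetylgalactosamine, went the other way. It had 90.8, 163 and 144 normalized counts in treated edited libraries, against 535, 426 and 506 in untreated edited ones. Wild-type GALNT4 values were 53.9, 151 and 152 in treated libraries, against 364, 441 and 363 in untreated ones. It fell in both lines, at log2 fold changes of -1.91 ± 0.31 (edited) and -1.84 ± 0.31 (wild type). Most of the GALNT4 exon sequence is shared with the readthrough gene POC1B-GALNT4, which had 5.41 ± 2.05 normalized counts in treated edited and 17.2 ± 3.95 in untreated edited libraries (SD, n = 3 each), so reads of the pair cannot be told apart with certainty. GALNT7, another enzyme of peptides that already carry a sugar, fell by less, at -0.47 ± 0.06 in the edited line and -0.33 ± 0.06 in wild type. GALNT3, the enzyme that protects FGF23 from cleavage, fell in wild type (-0.96 ± 0.26), while its -0.25 ± 0.26 in the edited line did not pass the test (adjusted p = 0.41). GALNT5 was called in neither line.

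**Figure D3:**
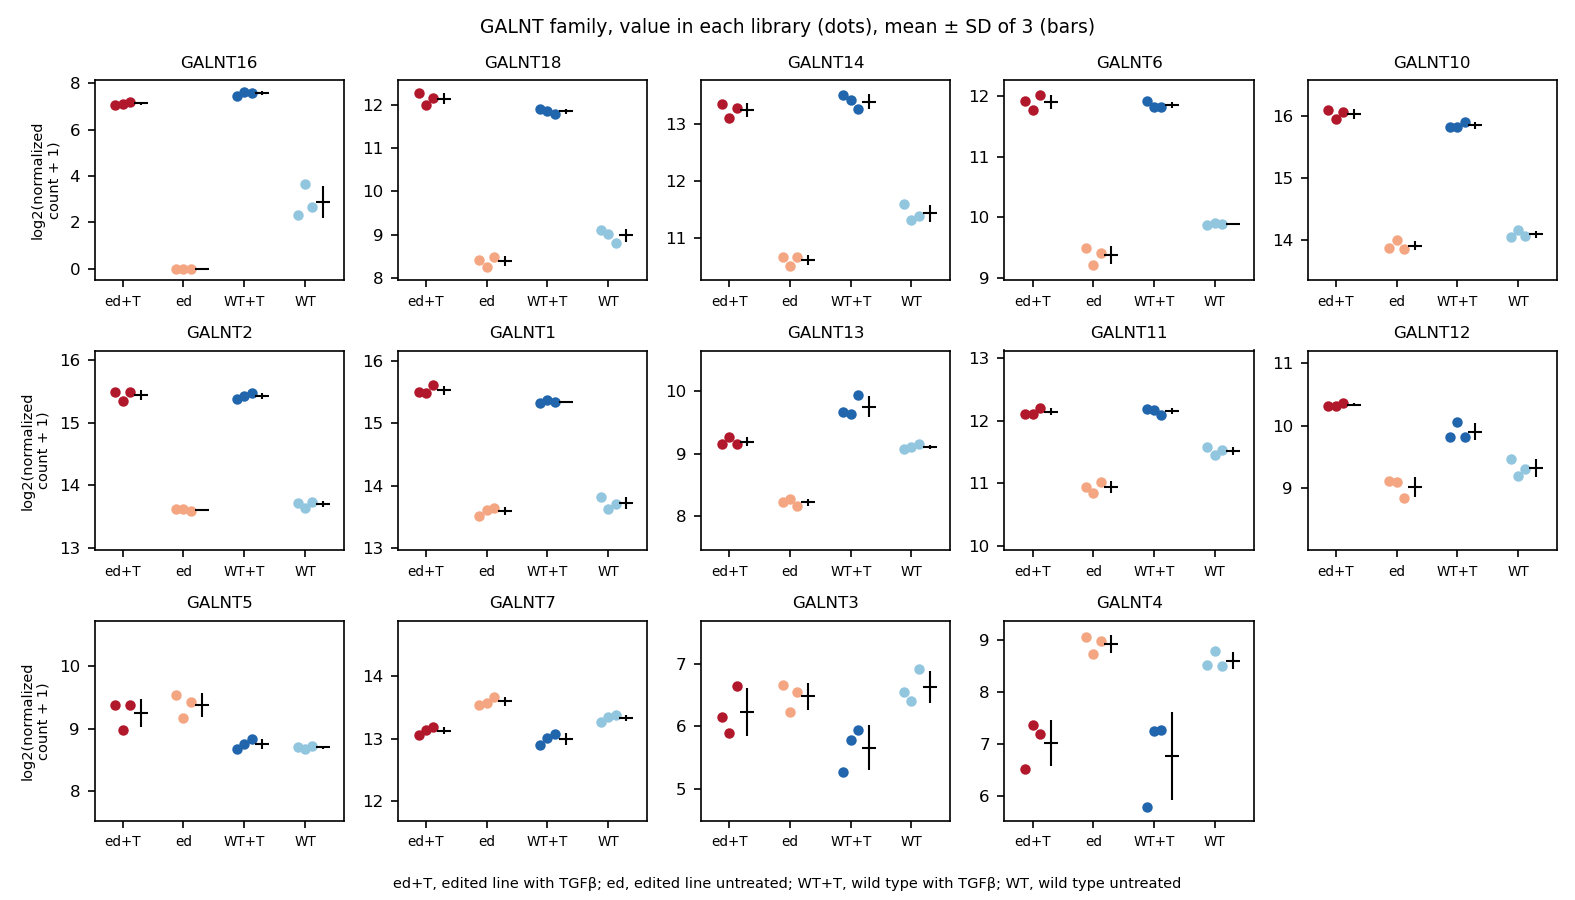
Log2(normalized count + 1) of the 14 GALNT members in each library (dots), with the mean ± SD of the 3 libraries of a group (bars); the y axes differ between panels and do not all start at 0. Panels run from the largest rise in wild type (GALNT16) to the largest fall (GALNT4), and untreated edited libraries lie at 0 for GALNT16.

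Of the GCNT enzymes, which start branches on O-glycans and on poly-N-acetyllactosamine, 4 of 6 passed the filter, and 2 rose and 2 fell in each line. GCNT1, which makes the core 2 branch, had 1538, 1487 and 1652 normalized counts in treated edited libraries, against 678, 562 and 722 in untreated edited ones. Wild-type GCNT1 values were 1326, 1364 and 1422 in treated libraries, against 578, 599.8 and 567 in untreated ones. It rose by 1.26 ± 0.09 in the edited line and 1.23 ± 0.09 in wild type, with no overlap of groups. GCNT4, another core 2 enzyme, rose by 0.83 (edited) and 0.75 (wild type), and its wild-type call was lost under quantile normalization (0.50). GCNT2, which makes I-antigen branches, fell in both lines (log2 fold change -0.50 in edited cells and -0.85 in wild type). GCNT3, the mucin-type core 2 and core 4 enzyme, fell in both lines (-0.17 and -0.24 on the log2 scale), and its call in the edited line needed each of treated edited replicate 2, untreated edited replicates 1 and 3, treated wild-type replicate 2 and untreated wild-type replicate 3 (-0.17 to -0.11 without one). That call was also lost with no filter (-0.17).

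Among the B3GNT enzymes, which add N-acetylglucosamine to extend chains, 7 of 8 passed. In the edited line 3 rose and 2 fell, and in wild type 4 rose and 1 fell. B3GNT5, which starts the lacto-series glycolipids, had 6673, 6926 and 7524 normalized counts in treated edited libraries, against 1705, 1826 and 1667 in untreated edited ones. Wild-type B3GNT5 values were 4350.5, 5244 and 6152 in treated libraries, against 1223, 1436 and 1366 in untreated ones. It rose by 2.02 ± 0.10 in the edited line and 1.96 ± 0.10 in wild type (adjusted p = 4.15e-11 and 6.99e-11). B3GNT3, which extends core 1 O-glycans, had 732, 511 and 708 normalized counts in treated edited libraries, against 1552, 1298 and 1457 in untreated edited ones. Wild-type B3GNT3 values were 419.9, 429.6 and 404 in treated libraries, against 1187, 1015 and 1075 in untreated ones. It fell without overlap in both lines, at log2 fold changes of -1.16 ± 0.12 in the edited line and -1.38 ± 0.12 in wild type. B3GNT6, the core 3 synthase, was close to the filter, with 17.7, 18.3 and 11.4 normalized counts in treated edited libraries, against 10.3, 4.29 and 2.45 in untreated edited ones. Wild-type B3GNT6 values were 12.1, 19.2 and 20.2 in treated libraries, against 3.99, 8.24 and 4.30 in untreated ones. Its rise of 1.48 ± 0.52 in the edited line and 1.51 ± 0.52 in wild type rests on few reads. The edited call needed each of treated edited replicates 1 and 2 and untreated edited replicates 2 and 3 (1.09 to 1.40 without one), and the wild-type call each of treated wild-type replicates 2 and 3 and untreated wild-type replicates 1 and 3 (1.34 to 1.41 without one). The edited call of B3GNT6 was also lost with no filter (1.48), and the wild-type one under quantile normalization (1.09) and with no filter (1.51). B3GNT2, the main poly-N-acetyllactosamine extender, rose by 0.57 in the edited line and 0.23 in wild type, the wild-type call needing each of treated wild-type replicate 2 and untreated wild-type replicate 2 (0.14 to 0.21 without one).

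Of the B3GALT enzymes, which add galactose to make type 1 chains and related structures, 4 of 5 passed. In the edited line 1 rose and 1 fell, and in wild type 2 rose and 2 fell. B3GALT1 had 9.40, 12.9 and 5.69 normalized counts in treated edited libraries, against 18.6, 10.7 and 3.27 in untreated edited ones. Wild-type B3GALT1 values were 14.3, 19.2 and 19.3 in treated libraries, against 1.99, 6.59 and 10.7 in untreated ones. The wild-type libraries did not overlap, but the counts were low, and the call in wild type (1.52 ± 0.62) needed each of treated edited replicate 1, untreated edited replicate 2, treated wild-type replicates 1, 2 and 3 and untreated wild-type replicates 1 and 2 (0.97 to 1.65 without one). The B3GALT1 call was also lost under quantile normalization (1.12), with no filter (1.52), with the replicate block (1.52), with edgeR (1.44) and with DESeq2 (1.47). B3GALT5, the main type 1 chain galactosyltransferase of epithelia, fell in the edited line (-0.92) and in wild type (-0.53), where the call needed each of treated wild-type replicates 1 and 2 and untreated wild-type replicate 2 (-0.47 to -0.40 without one) and was lost with the compared groups alone (-0.53). B3GALT6, which builds the linker of glycosaminoglycans, rose by 0.29 and 0.55, and the edited call needed each of treated edited replicates 1 and 3 and untreated edited replicates 2 and 3 (0.21 to 0.29 without one) and was lost under quantile normalization (0.24). B3GALT4, the ganglioside GM1 synthase, fell in wild type (-0.80) and was not called in the edited line.

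All 7 B4GALT enzymes passed, and 4 rose and 2 fell in the edited line, against 3 and 1 in wild type. B4GALT1, the main galactosyltransferase of N-glycans, rose by 0.94 ± 0.06 in the edited line and 0.93 ± 0.06 in wild type. B4GALT5, the main lactosylceramide synthase, had 28123, 26173 and 29482 normalized counts in treated edited libraries, against 11589, 11014 and 11850.2 in untreated edited ones. Wild-type B4GALT5 values were 23956, 26162 and 28974 in treated libraries, against 12512, 12991 and 12695 in untreated ones. It rose by 1.28 ± 0.07 (edited) and 1.05 ± 0.07 (wild type), without overlap. B4GALT6, the second lactosylceramide synthase, had 1699.6, 2185 and 1880.5 normalized counts in treated edited libraries, against 858, 771 and 1074 in untreated edited ones. Wild-type B4GALT6 values were 1309, 1405 and 1613 in treated libraries, against 1646, 962 and 1533 in untreated ones. It rose in the edited line (1.10 ± 0.17, adjusted p = 3.05e-05), while the wild-type groups overlapped (0.10 ± 0.17, adjusted p = 0.646). With untreated wild-type replicate 2 left out the wild-type value was -0.14. B4GALT4 had 10536, 9404 and 10077 normalized counts in treated edited libraries, against 11271, 10534 and 11312 in untreated edited ones. Wild-type B4GALT4 values were 12577, 11756 and 10656 in treated libraries, against 19588, 16853 and 17164 in untreated ones. It fell in wild type (-0.62 ± 0.07), and its -0.14 ± 0.07 in the edited line missed the threshold (adjusted p = 0.104), though it passed as a fall under TMM scaling (-0.18), with the replicate block (-0.14), with the compared groups alone (-0.14) and with edgeR (-0.18). Treated libraries of both lines lay near the untreated edited level.

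All 4 B4GALNT enzymes rose in both lines. B4GALNT2, which makes the Sda antigen, had 105, 59.2 and 77.4 normalized counts in treated edited libraries, against 0, 15.02 and 0 in untreated edited ones. Wild-type B4GALNT2 values were 93.4, 88.2 and 139 in treated libraries, against 15.9, 6.59 and 6.45 in untreated ones. Log2 fold changes were 4.98 ± 0.78 in the edited line and 3.42 ± 0.78 in wild type (adjusted p = 3.59e-05 and 0.00124). The edited value depends on the pseudocount, because some untreated edited libraries were at 0. A promoter window is shown as one of a strong rise that does hold the E-box letters. It lies at chr17:49132519-49132818, plus strand, GRCh38.p14, with the E-box in capitals beginning 88 bases before the RefSeq start of that window. This start lies 309 bases downstream of the GENCODE start, so the E-box begins 221 bases after the GENCODE start. The window placed on the GENCODE start itself, chr17:49132210-49132509, holds none.
B4GALNT2: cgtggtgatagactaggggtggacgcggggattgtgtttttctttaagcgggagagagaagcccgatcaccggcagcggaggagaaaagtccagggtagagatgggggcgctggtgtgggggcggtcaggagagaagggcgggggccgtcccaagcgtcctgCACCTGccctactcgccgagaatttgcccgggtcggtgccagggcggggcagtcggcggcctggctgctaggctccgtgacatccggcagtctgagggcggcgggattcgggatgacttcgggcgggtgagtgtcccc

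B4GALNT4, which adds N-acetylgalactosamine to form LacdiNAc ends, had 1054, 992 and 920.3 normalized counts in treated edited libraries, against 151, 148 and 163 in untreated edited ones. Wild-type B4GALNT4 values were 979, 1009.7 and 935 in treated libraries, against 259, 148 and 267 in untreated ones. B4GALNT3, its closest relative in function, had 310.1, 323 and 334 normalized counts in treated edited libraries, against 80.5, 80.4 and 94.0 in untreated edited ones. Wild-type B4GALNT3 values were 228, 224 and 251 in treated libraries, against 109.7, 70.0 and 107 in untreated ones. Both rose without overlap, B4GALNT4 by 2.67 ± 0.17 in the edited line and 2.16 ± 0.17 in wild type, and B4GALNT3 by 1.92 ± 0.18 and 1.31 ± 0.18. B4GALNT1, the GM2 and GD2 ganglioside synthase, rose by 0.73 (edited) and 0.42 (wild type). Its exons overlap SLC26A10 on the other strand, so its value is uncertain if strand was not used in counting.

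Among the 7 MGAT enzymes, which add the branching N-acetylglucosamines of N-glycans, 3 rose and 1 fell in the edited line, and 3 rose and 2 fell in wild type. MGAT5, which adds the branch that carries long poly-N-acetyllactosamine chains and is known from invasive tumours, had 9409.6, 9359 and 9823 normalized counts in treated edited libraries, against 9678, 8166 and 9168 in untreated edited ones. Wild-type MGAT5 values were 10194, 10880.2 and 12538 in treated libraries, against 20905, 19584 and 20667 in untreated ones. It fell in wild type (-0.87 ± 0.08, adjusted p = 4.84e-08), and the treated and untreated edited groups differed by 0.09 ± 0.08 (adjusted p = 0.346). The untreated wild-type libraries stood apart, at about the same height as each other and above the other 9. MGAT3, which adds the bisecting sugar that stops further branching, had 224, 149.7 and 193 normalized counts in treated edited libraries, against 103, 144 and 94.0 in untreated edited ones. Wild-type MGAT3 values were 206, 180.3 and 216 in treated libraries, against 323, 299.9 and 301 in untreated ones. It rose in the edited line (0.73 ± 0.18, adjusted p = 0.00216) and fell in wild type (-0.62 ± 0.18, adjusted p = 0.00747).

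MGAT4B, which adds a further antenna to N-glycans, had 12934, 11716 and 12422 normalized counts in treated edited libraries, against 5105, 4634 and 5156 in untreated edited ones. Wild-type MGAT4B values were 14677, 13275 and 12129 in treated libraries, against 7341, 6379 and 7357 in untreated ones. MGAT4B rose by 1.32 ± 0.08 in the edited line and 0.93 ± 0.08 in wild type, and its relative MGAT4A by 0.73 and 0.82. MGAT1, the first enzyme of complex N-glycan branching, fell in the edited line (-0.29) and was not called in wild type. MGAT2, the next enzyme of the path, was called in neither line at group means of 70.98 to 85.4 normalized counts. Most of the MGAT2 exon sequence overlaps a gene on the other strand, so its level is uncertain.

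Of the fucosyltransferases 7 of 11 passed, and 3 rose and 1 fell in the edited line, against 3 and 2 in wild type. The wild-type falls include FUT6, whose direction there was fixed by the filter. FUT1, which makes the H antigen, had 20.9, 8.61 and 20.48 normalized counts in treated edited libraries, against 354, 423 and 349.8 in untreated edited ones. Wild-type FUT1 values were 13.2, 12.5 and 20.2 in treated libraries, against 480.5, 548 and 576 in untreated ones. Treated libraries held a small part of the untreated level in both lines, at log2 fold changes of -4.50 ± 0.29 (edited) and -5.07 ± 0.29 (wild type), with adjusted p of 8.63e-10 and 2.25e-10. ST6GALNAC1, the steepest fall, had no promoter window, so one of FUT1, the next steepest in wild type, is shown. Of the FUT1 windows, the one with 2 E-boxes was chosen because it holds those letters. It lies at chr19:48755309-48755608, minus strand, GRCh38.p14, with the E-boxes in capitals beginning 199 and 69 bases before the window's RefSeq start, which lies 32 bases downstream of the GENCODE start. A second FUT1 window, at chr19:48752592-48752891, holds none.
FUT1: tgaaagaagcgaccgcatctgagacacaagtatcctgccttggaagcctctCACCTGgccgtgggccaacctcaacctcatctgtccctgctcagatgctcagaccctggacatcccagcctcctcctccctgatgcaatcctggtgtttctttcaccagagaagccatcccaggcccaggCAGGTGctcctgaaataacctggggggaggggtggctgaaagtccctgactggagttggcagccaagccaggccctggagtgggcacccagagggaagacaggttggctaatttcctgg

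FUT8, the only enzyme of core fucosylation of N-glycans, had 15694, 14436 and 15796 normalized counts in treated edited libraries, against 4800.5, 4700.2 and 4721 in untreated edited ones. Wild-type FUT8 values were 13828, 13878 and 13044 in treated libraries, against 4406, 4324 and 4317 in untreated ones. It rose by 1.69 ± 0.05 in the edited line and 1.64 ± 0.05 in wild type, with no overlap. FUT11 had 1789, 1719.6 and 1876 normalized counts in treated edited libraries, against 886, 706 and 929 in untreated edited ones. Wild-type FUT11 values were 1671, 1766 and 1907 in treated libraries, against 683, 712 and 711 in untreated ones. FUT4, which makes Lewis x, had 1109.8, 1010.0 and 1098 normalized counts in treated edited libraries, against 518, 595 and 481 in untreated edited ones. Wild-type FUT4 values were 856, 937 and 877 in treated libraries, against 414, 476 and 482 in untreated ones. FUT11 rose by 1.10 ± 0.10 (edited) and 1.34 ± 0.10 (wild type), and FUT4 by 1.02 ± 0.10 and 0.96 ± 0.10. FUT6, a Lewis fucosyltransferase close in sequence to FUT3 and FUT5, had 4.18, 0 and 0 normalized counts in treated edited libraries, against 5.16, 4.29 and 4.90 in untreated edited ones. Wild-type FUT6 values were 0, 1.92 and 2.52 in treated libraries, against 25.9, 21.4 and 13.96 in untreated ones. The filter took FUT6 through those untreated wild-type libraries alone, so no test is given for its fall in wild type. Its -1.74 ± 0.76 in the edited line missed the threshold (adjusted p = 0.0568) but passed once treated edited replicate 1 (-2.53) or treated wild-type replicate 1 (-1.74) was left out, and under quantile normalization (-1.97). Reads of the near-identical FUT3, FUT5 and FUT6 may be split among them.

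All 6 ST3GAL sialyltransferases passed, and 5 rose in the edited line and 3 in wild type, with none called lower. ST3GAL2, which sialylates core 1 O-glycans and gangliosides, had 3129, 2822 and 3189.8 normalized counts in treated edited libraries, against 1339, 1295 and 1271 in untreated edited ones. Wild-type ST3GAL2 values were 3186, 3077 and 3005 in treated libraries, against 1215, 1138 and 1368 in untreated ones. ST3GAL5, the GM3 ganglioside synthase, had 4448, 4028 and 4429 normalized counts in treated edited libraries, against 1909, 1700.1 and 1974 in untreated edited ones. Wild-type ST3GAL5 values were 4118, 4227 and 3971 in treated libraries, against 1985, 1918 and 1893 in untreated ones. Neither gene's groups overlapped. The log2 fold changes were 1.22 ± 0.08 (edited) and 1.32 ± 0.08 (wild type) for ST3GAL2, and 1.21 ± 0.07 and 1.09 ± 0.07 for ST3GAL5. ST3GAL1, the main sialyltransferase of core 1 O-glycans, had 7869, 7636 and 7656 normalized counts in treated edited libraries, against 3574, 3434 and 3598 in untreated edited ones. Wild-type ST3GAL1 values were 6152, 6648 and 6984 in treated libraries, against 3534, 3560.0 and 3547 in untreated ones. It rose by 1.13 ± 0.06 in the edited line and 0.89 ± 0.06 in wild type. ST3GAL4 and ST3GAL6, which serve sialyl Lewis x, were called in the edited line alone, at 0.43 and 0.66. For ST3GAL4 the wild-type value was -0.15 ± 0.09 (adjusted p = 0.148), and it passed as a fall once treated wild-type replicate 1 was left out (-0.22).

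The ST6GAL group held 8 members that passed, and 3 rose and 3 fell in the edited line, against 4 and 3 in wild type. ST6GALNAC1 (GRCh38 chromosome 17, 76624761 to 76643838, minus strand), the synthase of the tumour antigen sialyl-Tn, showed the largest fall of the members. It had 2.09, 0 and 0 normalized counts in treated edited libraries, against 327, 264 and 307 in untreated edited ones. Wild-type ST6GALNAC1 values were 8.79, 1.92 and 1.68 in treated libraries, against 310.0, 328 and 354 in untreated ones. The treated edited libraries held 2 reads in all and the untreated edited ones 939, a ratio of 416 (95% exact interval 115 to 3436, counting error only). Log2 fold changes were -7.68 ± 0.50 in the edited line and -6.29 ± 0.50 in wild type, with adjusted p of 9.63e-10 and 1.34e-08. ST6GALNAC2, a related enzyme of O-glycans, had 60.6, 71.1 and 70.5 normalized counts in treated edited libraries, against 223, 199.5 and 198 in untreated edited ones. Wild-type ST6GALNAC2 values were 83.5, 94.9 and 57.2 in treated libraries, against 203, 201 and 226 in untreated ones. It too fell without overlap, at log2 fold changes of -1.60 ± 0.19 in the edited line and -1.44 ± 0.19 in wild type.

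ST6GALNAC6, which makes disialyl structures on glycolipids, rose. It had 1377, 1139 and 1295 normalized counts in treated edited libraries, against 482, 514 and 429.9 in untreated edited ones. Wild-type ST6GALNAC6 values were 1364, 1031 and 1028 in treated libraries, against 406, 344 and 379 in untreated ones. The change was 1.42 ± 0.12 in the edited line and 1.59 ± 0.12 in wild type. Part of its exon sequence is shared with an overlapping gene on the same strand. ST6GALNAC3, an enzyme of glycolipids and O-glycans, had 192, 119.5 and 184 normalized counts in treated edited libraries, against 67.1, 70.8 and 53.1 in untreated edited ones. Wild-type ST6GALNAC3 values were 154, 113 and 147 in treated libraries, against 81.7, 83.2 and 90.2 in untreated ones. It rose by 1.34 ± 0.21 in the edited line and 0.68 ± 0.21 in wild type, where the call was lost under quantile normalization (0.44). ST6GAL1, the main sialyltransferase of N-glycans, rose by 0.72 (edited) and 0.37 (wild type), and ST6GAL2, its relative with a narrower expression, fell (-0.66 and -0.96).

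Of the ST8SIA enzymes, which extend sialic acid with further sialic acid, 3 of 6 passed. ST8SIA4, a polysialyltransferase known for modifying NCAM, had 430.1, 449 and 513 normalized counts in treated edited libraries, against 1522, 1262 and 1711 in untreated edited ones. Wild-type ST8SIA4 values were 498, 539 and 574 in treated libraries, against 2665, 2501 and 2635 in untreated ones. It fell without overlap, at log2 fold changes of -1.68 ± 0.11 in the edited line and -2.28 ± 0.11 in wild type (adjusted p = 7.44e-10 and 1.89e-11). ST8SIA6 had 19.8, 11.8 and 15.9 normalized counts in treated edited libraries, against 0 in each untreated edited one. Wild-type ST8SIA6 values were 2.20, 5.75 and 4.20 in treated libraries, against 0, 0 and 2.15 in untreated ones. Against the floor of 3 reads per library the treated edited mean was at least 5.43-fold higher than the untreated one. The filter took ST8SIA6 through those treated edited libraries alone, so no test is given for it there. In wild type the fitted value was 1.72 ± 0.73 (adjusted p = 0.0507), from 13 reads in treated and 2 in untreated libraries, and it passed once treated wild-type replicate 1 (2.02) or untreated wild-type replicate 3 (2.27) was left out, and under TMM scaling (1.73) and with no filter (1.72). ST8SIA1, the GD3 ganglioside synthase, had 14.6, 12.9 and 12.5 normalized counts in treated edited libraries, against 3.10, 6.44 and 4.90 in untreated edited ones. Wild-type ST8SIA1 values were 26.4, 49.9 and 39.5 in treated libraries, against 1.99, 2.47 and 19.3 in untreated ones. It rose in wild type (2.69 ± 0.62, adjusted p = 0.00135). In the edited line its 1.34 ± 0.62 was not called (adjusted p = 0.0713), but passed with untreated wild-type replicate 3 left out (1.34) and with the compared groups alone (1.34).

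**Figure D4:**
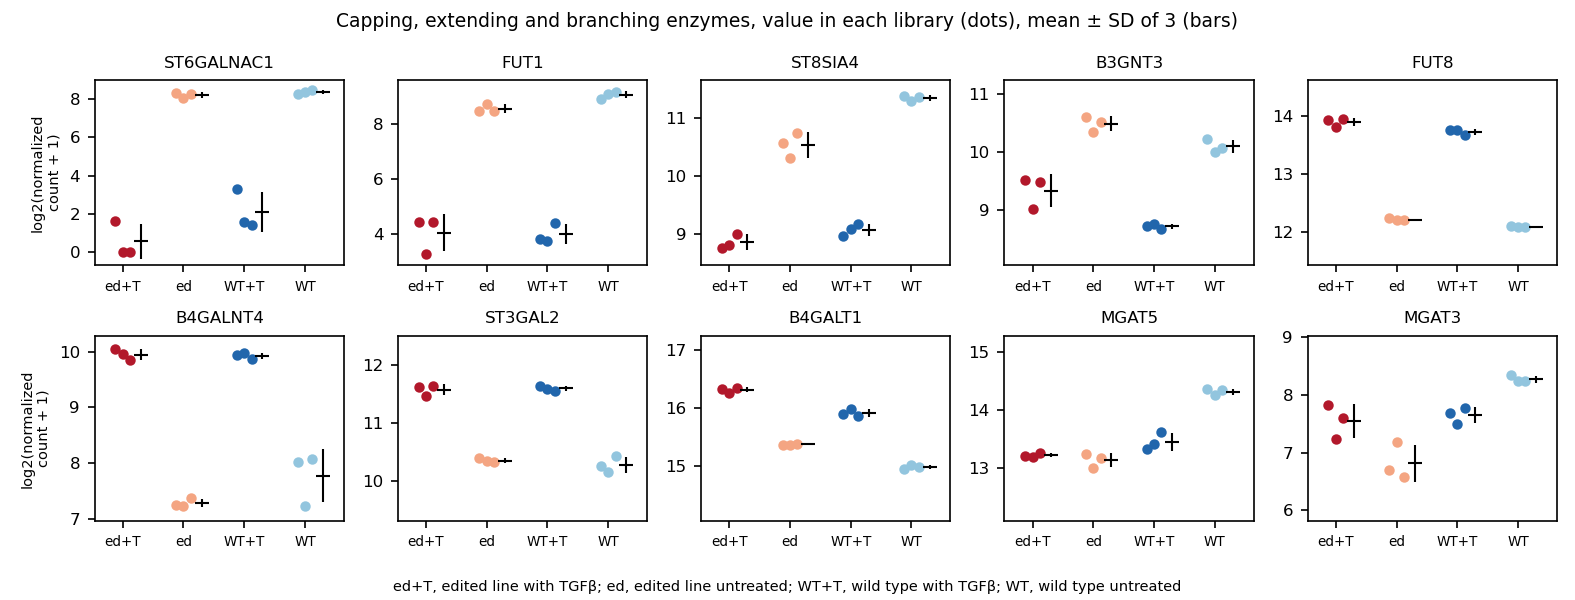
Log2(normalized count + 1) of 10 capping, extending and branching enzymes in each library (dots), with the mean ± SD of the 3 libraries of a group (bars); the y axes differ between panels and do not all start at 0. ST6GALNAC1 and FUT1 lie near the bottom in treated libraries of both lines, and MGAT5 is high in untreated wild type alone.

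Before TGFβ the edited line differed from wild type in 32 of 71 members, where 31.8% of all genes differed. It was higher in 11, where 14.3% of all genes were higher, and lower in 21, where 17.5% were lower. The median was -0.09 over the members and 0.00 over all genes. The GALNT family had 8 of its 14 members lower and 2 higher, the MGAT family 3 lower and 1 higher, and no FUT member was called.

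MGAT3 had 103, 144 and 94.0 normalized counts in untreated edited and 323, 299.9 and 301 in untreated wild-type libraries, a log2 fold change of -1.45 ± 0.18 (adjusted p = 1.83e-05). MGAT5 had 9678, 8166 and 9168 in untreated edited and 20905, 19584 and 20667 in untreated wild-type libraries, at -1.18 ± 0.08 (adjusted p = 2.1e-08). For both genes every edited library lay below every wild-type one. B3GALT5 moved up, with 239, 221 and 235 in untreated edited and 84.7, 105 and 90.2 in untreated wild-type libraries (1.31 ± 0.19, adjusted p = 7.06e-05). It was the only member called higher by at least 2-fold, and 2.99% of all genes were.

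GALNT13 (-0.88 ± 0.10), GALNT14 (-0.82 ± 0.09), ST8SIA4 (-0.81 ± 0.11) and B4GALT4 (-0.69 ± 0.07) were lower in the untreated edited line, from the library values given above. GALNT5 was higher, with 748, 578 and 691 in untreated edited and 416, 409 and 421 in untreated wild-type libraries (0.69 ± 0.12). GALNT16 was at 0 in the untreated edited libraries and at 3.99, 11.5 and 5.37 in the untreated wild-type ones. Some smaller calls rested on single libraries. Leaving out 1 library moved the count of higher members between 8 and 12 and that of lower ones between 15 and 22. Calls of B3GALT6, B3GNT2, B3GNT3, B3GNT5, GALNT10, GALNT12, ST3GAL6, ST6GAL2 and ST6GALNAC6 were each lost when some single library was left out. B4GALT6 (-0.59) was called only with each of untreated edited replicates 1 and 2 and untreated wild-type replicates 1 and 3 (-0.56 to -0.44 without one), and B4GALNT4 (-0.50) only with each of untreated edited replicates 1, 2 and 3 and untreated wild-type replicates 1 and 3 (-0.54 to -0.35 without one). Both calls were also lost with the compared groups alone.

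With TGFβ on both lines, 11 members differed, where 11.7% of all genes did. The edited line was higher in 9 (7.38% of all genes) and lower in 2 (4.32% of all genes), none by as much as 2-fold (1.57% of all genes). The median was 0.07 over the members and 0.01 over all genes. Leaving out 1 library moved the count of higher members between 4 and 11. It was 5 with treated edited replicate 1 left out and 4 with replicate 3 left out. The count of lower members was 4 with treated wild-type replicate 3 left out.

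B3GALT5 had 124, 121 and 122 normalized counts in treated edited and 52.8, 58.5 and 84.0 in treated wild-type libraries, a log2 fold change of 0.93 ± 0.19 (adjusted p = 0.00441). B3GNT3 was higher in the treated edited line by 0.62 ± 0.12 and GALNT13 lower, at a log2 fold change of -0.56 ± 0.10 (adjusted p = 0.00355 and 0.00182). B4GALT1 had 82261, 78724 and 83414 in treated edited and 60712, 64789 and 59190.0 in treated wild-type libraries, with no overlap (0.40 ± 0.06). Without TGFβ it had 42162, 42189 and 42682 in edited and 31412, 33043 and 32100.0 in wild-type libraries (0.40 ± 0.06).

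The remaining calls were less stable. GALNT5 had 665, 507 and 668 in treated edited and 408, 432 and 457 in treated wild-type libraries, and its 0.49 needed each of treated edited replicates 1 and 3 and treated wild-type replicate 2 (0.43 to 0.49 without one). ST6GALNAC4 had 859, 744 and 927 in treated edited and 686, 672 and 518 in treated wild-type libraries, and its 0.44 needed each of treated edited replicates 1 and 3 and treated wild-type replicate 3 (0.31 to 0.42 without one). B3GNT5 (0.44) and GALNT12 (0.44) were not called once treated edited replicate 3 was left out (0.39 and 0.42). FUT8 (0.17) needed each of treated edited replicates 1 and 3, untreated edited replicates 1, 2 and 3, treated wild-type replicates 2 and 3 and untreated wild-type replicates 1, 2 and 3 (0.14 to 0.19 without one), and ST3GAL1 (0.23) needed treated edited replicate 1 (0.22 without it). With the compared groups alone the calls of GALNT5, ST6GALNAC4, B3GNT5 and ST3GAL1 were lost as well, and that of FUT8 was lost under quantile normalization (0.14), with no filter (0.17) and with the compared groups alone (0.17). MGAT5 had -0.23 ± 0.08 (adjusted p = 0.0643), and passed the test as lower under quantile normalization (-0.24), with the replicate block (-0.23) and with DESeq2 (-0.23), and once treated wild-type replicate 1 was left out (-0.29).

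A shift between the lines was seen on 2 chromosomes. Genes of chromosomes 8 and 9 with a mean of at least 100 normalized counts had a median log2 fold change of 0.14 (436 genes) and 0.19 (498 genes) between treated edited and treated wild type, beside 0.02 over 13590 genes. In untreated cells the medians were 0.06 and 0.15, beside -0.03 over all. Of the 9 members higher in the treated edited line, 4 lie on these chromosomes (ST3GAL1 on 8, and B4GALT1, GALNT12 and ST6GALNAC4 on 9), as do 7 of the 71 members. In untreated cells 3 of the 11 members higher in the edited line lie there, and so does 1 of the 21 lower ones, GALNT12 (-0.30). Among these, the untreated calls of ST6GALNAC6 and GALNT12 depended on single libraries. The part of this shift in the members' differences was not tested.

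The response to TGFβ itself differed between the lines in 19 members, where 16.6% of all genes differed. The log2 fold change was more positive in the edited line in 18, where 10.6% of all genes were, and more negative in 1 (MGAT1), where 6.02% of all genes were. These differences use the same libraries as the comparisons above, and GALNT supplied 8 of them. The count of higher members ran from 14 to 23 and that of lower ones from 1 to 4 when 1 library was left out. The lower count was 4 with treated edited replicate 1 left out, and 3 with treated or untreated wild-type replicate 3 left out.

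MGAT3, the member called in opposite directions, had 0.73 in the edited line against -0.62 in wild type, a difference of 1.35 ± 0.26 (adjusted p = 0.00198). MGAT5 differed by 0.95 ± 0.11 and B4GALT6 by 1.00 ± 0.24 (adjusted p = 3.75e-05 and 0.00927). For all 3 genes the edited line began below wild type and the treated groups were not called different, MGAT5 with the exceptions given above. For B4GALT6, though, the untreated libraries of the lines overlapped. Its treated edited libraries all lay above the treated wild-type ones (0.41 ± 0.17, adjusted p = 0.1365). Among GALNT genes, the difference was 0.88 ± 0.13 for GALNT18, 0.74 ± 0.15 for GALNT12 and 0.67 ± 0.12 for GALNT14. Both lines rose for each of these 3, the edited line by more. ST8SIA4 fell in both lines, by less in the edited one (0.59 ± 0.15).

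GALNT16 had the largest fitted difference (2.44 ± 0.52), which rests on 0 in the untreated edited libraries against 3.99, 11.5 and 5.37 in untreated wild type. With a pseudocount of 10 it was 0.32 and no longer passed. FUT1 (0.56 ± 0.41, adjusted p = 0.388) and ST6GALNAC1 (-1.40 ± 0.70, adjusted p = 0.197), the steepest falls, were not called different between the lines. FUT1 passed with treated edited replicate 2 left out (0.95), and ST6GALNAC1 with treated edited replicate 1 left out (-1.94). The calls of GALNT1 (0.32), MGAT4B (0.39), ST3GAL6 (0.58) and ST6GAL2 (0.30) depended on single libraries. GALNT1 needed each of treated edited replicate 3, untreated edited replicate 1 and untreated wild-type replicate 1 (0.27 to 0.28 without one) and was lost under quantile normalization (0.20). MGAT4B needed each of treated edited replicates 1 and 3, untreated edited replicate 2, treated wild-type replicate 2 and untreated wild-type replicates 1 and 3 (0.34 to 0.39 without one) and was lost under quantile normalization (0.33). ST3GAL6 needed each of treated edited replicates 1, 2 and 3, untreated edited replicates 1, 2 and 3, treated wild-type replicates 1 and 2 and untreated wild-type replicates 1 and 3 (0.41 to 0.64 without one) and was lost under TMM scaling (0.55), under quantile normalization (0.55) and with no filter (0.58). For ST6GAL2 the call needed each of treated edited replicates 2 and 3, untreated edited replicate 2, treated wild-type replicate 2 and untreated wild-type replicates 1 and 3 (0.23 to 0.31 without one) and was lost under quantile normalization (0.23), with no filter (0.30) and with edgeR (0.27). GALNT10 (0.36) was not called under quantile normalization (0.28).

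**Figure D5:**
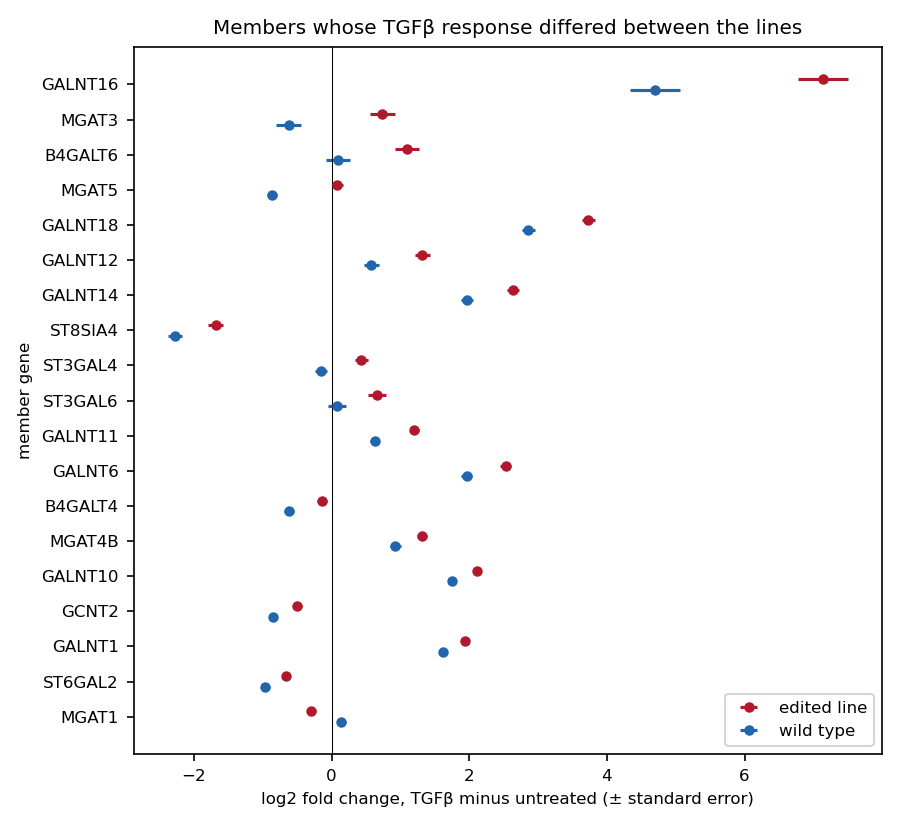
Log2 fold change with TGFβ (± standard error) in the edited line (red) and in wild type (blue) for the 19 members whose response differed between the lines, sorted by that difference. The edited point lies to the right in 18 members and to the left in MGAT1 (-0.29 in the edited line, 0.14 in wild type).

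Per kilobase of exon the members covered a wide range. In untreated wild type B4GALT1 had the highest level, at 6567 ± 167 normalized counts per kilobase (SD, n = 3). B4GALT5 (2696 ± 51.2), GALNT1 (2644 ± 181), B4GALT4 (2501 ± 209.5) and MGAT5 (2376 ± 82.0) followed per kilobase, each within the spread of its neighbour in this order. GALNT2 (1720.1 ± 59.2) and GALNT10 (1670.4 ± 71.5) per kilobase were next and lay within each other's spread. In treated edited libraries GALNT1 had 9246 ± 455, GALNT10 6354 ± 317, B4GALT5 5914 ± 352 and GALNT2 5760.4 ± 332 normalized counts per kilobase, behind B4GALT1 at 16622 ± 499. GALNT16, for all its rise, had 12.9 ± 0.678 per kilobase in treated edited libraries.

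Among genes that supply these enzymes with activated sugars, falls were more frequent than rises. Of 22 genes of nucleotide sugar synthesis, which make the sugar donors, 5 rose (22.7%) and 13 fell (59.1%) with TGFβ in the edited line, where 32.1% of all genes rose and 30.7% fell. In wild type 5 rose (22.7%) and 12 fell (54.5%), where 30.8% of all genes rose and 30.9% fell. The list's median log2 fold change was -0.40 in the edited line and -0.29 in wild type. GMDS, the first enzyme of GDP-fucose synthesis, fell in both lines (log2 fold change -1.81 ± 0.11 in edited cells and -2.01 ± 0.11 in wild type). NANS, of sialic acid synthesis, did so too (-1.32 ± 0.08 and -1.22 ± 0.08). GFPT1, the entry enzyme of the hexosamine pathway, also fell in the edited line (-1.78 ± 0.07) and in wild type (-0.89 ± 0.07). The same held for GMPPB, which makes GDP-mannose (-1.69 ± 0.07 in edited cells and -0.55 ± 0.07 in wild type), and for GNE, the entry enzyme of sialic acid synthesis (-1.26 ± 0.06 and -1.28 ± 0.06). GFPT2, the second hexosamine entry enzyme, rose by 1.11 ± 0.07 in the edited line and 1.65 ± 0.07 in wild type.

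In untreated cells 12 of these 22 genes were higher (54.5%, beside 14.3% of all genes) and 3 lower (13.6%, beside 17.5%) in the edited line, at a median of 0.21. PGM3, of UDP-N-acetylglucosamine synthesis, was higher by 1.08 ± 0.07, GFPT1 by 0.87 ± 0.07, GMPPB by 0.84 ± 0.07 and GFPT2 by 0.81 ± 0.07. Their response to TGFβ was called lower in the edited line than in wild type in 8 genes (36.4%, beside 6.02% of all genes) and higher in 1 (4.55%, beside 10.6%), led by PGM3 (-1.24 ± 0.10) and GMPPB (-1.14 ± 0.11). Of 10 Golgi nucleotide sugar transporters, 8 fell and 0 rose with TGFβ in the edited line, and 7 fell and 1 rose in wild type, beside 30.7% and 30.9% of all genes that fell. SLC35C2 fell in the edited line (-0.56 ± 0.07) and in wild type (-0.36 ± 0.07), as did SLC35D1 (-0.50 ± 0.08 and -0.70 ± 0.08). SLC35C1, the GDP-fucose transporter, had 0.11 ± 0.08 in the edited line, short of the threshold (adjusted p = 0.258), and rose by 0.53 ± 0.08 in wild type. All these transporter changes were under 2-fold.

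Glycosyltransferases outside the symbol rule, listed with C1GALT1C1, a chaperone of C1GALT1, moved mostly upward with TGFβ. Of 18 tested, 11 rose (61.1%, beside 32.1% of all genes) and 3 fell (16.7%, beside 30.7%) in the edited line. In wild type 12 rose (66.7%, beside 30.8%) and 2 fell (11.1%, beside 30.9%). C1GALT1C1 is among the rises of both lines, by 0.67 ± 0.08 (edited) and 0.56 ± 0.08 (wild type). LFNG, the Fringe enzyme that modifies Notch, rose by 3.57 ± 0.19 in the edited line and 3.84 ± 0.19 in wild type. B3GLCT, which extends O-fucose on thrombospondin repeats, rose by 2.18 ± 0.07 and 1.54 ± 0.07, POMT2, of O-mannosylation, by 1.02 ± 0.06 and 1.23 ± 0.06, and MFNG, a second Fringe, by 1.00 ± 0.17 and 1.94 ± 0.17. C1GALT1, the core 1 synthase that acts directly after the GALNT enzymes, and UGCG, which makes glucosylceramide, were the members of this list that fell in both lines.

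Promoter windows were matched for 50 of the 71 members (90 windows, RefSeq, GRCh38.p14). The letters CAGGTG or CACCTG, searched on both strands, stood in 21 of the 90 windows (23.3%), beside 7231 of all 35116 windows of the same length (20.6%). Among members higher with TGFβ in both lines 20% of windows held them, and among members lower in both lines 12.5%. The SMAD palindrome GTCTAGAC stood in 0 of the member windows and in 71 of all windows (0.202%).

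Below the filter were 17 matched symbols. These were ST6GALNAC5, B3GALT2, GALNT8, GALNT9, GALNT15, GCNT6, GCNT7, B3GNT8, FUT3, FUT5, FUT7, FUT9, ST8SIA2, ST8SIA3, ST8SIA5 and the pseudogenes ST6GALNAC2P1 and ST6GALNAC4P1. FUT7, FUT9 and ST6GALNAC2P1 were at 0 in all 12 libraries. ST6GAL2-IT1, a non-coding transcript that the symbol rule also took, passed the filter and was called in none of the 5 comparisons.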

How the data were processed

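RNA-seq of 12 libraries was used, 3 for each combination of genotype and treatment. The authors deposited 1 table of normalized counts per gene (a signal, unit per the values). The submitters' processing notes name the build GRCh38.p14 and the tools DESeq2, featureCounts, HISAT2 and StringTie. Not given in the sources used here: tool versions and roles, the annotation release and whether counting used strand. Every value of a library was a whole multiple of 1 step size, and division by it recovered whole reads for 100% of values (tolerance 0.01) and 84210775 to 111141708 reads per library. Their number limits the precision of low genes, and intervals and floors cover counting error only. Of the rows, 28 carried names turned into dates and are not named.

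The 20456 of 58830 genes that reached 10 in 3 or more libraries were fitted with limma 3.58.1 (trend, R 4.3.3) on log2(value + 1), with 4 group means in 1 fit. The 5 comparisons were two-sided, with Benjamini-Hochberg adjustment over all genes and a threshold of 0.05. On this scale fold changes of low genes depend on the pseudocount and tend to be understated. Where only some libraries of a group were at 0, they can exceed the ratio of group means. After ± stands the standard error of a log2 fold change or the SD of a mean. Alternatives were TMM scaling, quantile normalization, a pseudocount of 10, no filter, a filter of 50, a replicate block, the compared groups alone, leaving out each library, and, on the recovered reads, edgeR 4.0.16 and DESeq2 1.42.0.

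Members, gene lists and tests were chosen with earlier results of these data known. Named with library values were members called with an absolute log2 fold change of at least 1, or, in a comparison with under 8 of these, the called members with the largest change up to 8. Called members with a mean under 10 in every group compared were left out. Up to 4 called genes per other list and comparison were named. Positions and exon lengths came from GENCODE 29 on GRCh38, and promoter windows from RefSeq on GRCh38.p14. No column was left unmapped.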

Additional observations from a re-analysis of the deposited data

Results flagged for a closer look

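The response to TGFβ differed between the edited line and wild type in 19 members by the test of that difference (limma, adjusted over 20456 genes), beside 10.6% of all genes with a more positive and 6.02% with a more negative response in the edited line. Values are the edited log2 fold change minus the wild-type one, ± standard error.

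Among GALNT genes these were 2.44 ± 0.52 for GALNT16, 0.88 ± 0.13 for GALNT18, 0.74 ± 0.15 for GALNT12, 0.67 ± 0.12 for GALNT14, 0.58 ± 0.09 for GALNT11, 0.56 ± 0.12 for GALNT6, 0.36 ± 0.09 for GALNT10 and 0.32 ± 0.09 for GALNT1. For N-glycan branching they were 1.35 ± 0.26 for MGAT3, 0.95 ± 0.11 for MGAT5, 0.39 ± 0.11 for MGAT4B and -0.44 ± 0.09 for MGAT1. For chain building they were 1.00 ± 0.24 for B4GALT6, 0.47 ± 0.10 for B4GALT4 and 0.35 ± 0.09 for GCNT2. For sialyltransferases they were 0.59 ± 0.15 for ST8SIA4, 0.59 ± 0.13 for ST3GAL4, 0.58 ± 0.19 for ST3GAL6 and 0.30 ± 0.09 for ST6GAL2.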

How the results depend on the processing

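The values recomputed here were the members' called ones and some uncalled ones named in the text. New passes among the other uncalled values are therefore not counted. Of 1617 values recomputed under other settings, 1562 kept their direction and side of the threshold, 44 no longer passed and 11 passed newly. Leaving out single libraries gave 2063 such values of 2196, with 123 no longer passing, 9 newly passing and 1 reversed, the response of B4GALT6 in wild type (-0.14 without replicate 2 of untreated wild type, with a range over single libraries of -0.14 to 0.24).

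The comparison of the lines with TGFβ moved most, and the causes were not tested. Its count of higher members (9) was 4 with the compared groups alone and 15 with DESeq2, and its count of lower members (2) was 4 under TMM, 5 under quantile normalization, 5 with the replicate block and 6 with DESeq2. With the compared groups alone 1183 genes were called, against 2394. In the interaction 2 members were lower under TMM, quantile normalization, edgeR and DESeq2, against 1. Leaving out single libraries gave 4 to 11 higher members, 2 to 4 lower members and 1387 to 3829 called genes with TGFβ on both lines, and 1 to 4 lower members in the interaction. Quantile normalization lowered the share of higher calls with TGFβ on both lines to 50.4%, against 63.1% as reported, and in the interaction to 53.4%, against 63.7% as reported. On the recovered reads edgeR called 12669 genes for TGFβ in wild type, 12803 in the edited line, 6529 between untreated lines, 2564 with TGFβ and 3404 for the interaction.

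Replicate numbers showed little sign of pairing the samples. Over 18 pairs with the same number the correlation of deviations ran from -0.031 to 0.129, with 1 pair over 0.1. With the replicate block 2987 genes were called between the treated lines and 3987 for the interaction, against 2394 and 3395 without it. The block raised the count of called genes in each of the other comparisons as well.

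Depth limits the members near the filter (ST8SIA6, B3GNT7, FUT6, B3GNT6 and B3GALT1). With 1 derivative line and 3 libraries per group, small differences between the lines depend on single libraries.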

Other observations

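The Golgi tethers, the COG complex and related Golgi proteins, which hold glycosyltransferases in their cisternae, fell more often than they rose with TGFβ. Of 20 tested, 2 rose (10%) and 13 fell (65%) with TGFβ in the edited line, where 32.1% of all genes rose and 30.7% fell. In wild type 6 rose (30%) and 11 fell (55%), where 30.8% of all genes rose and 30.9% fell. The medians were -0.37 and -0.20. GOLIM4, a Golgi transport protein, rose by 1.02 ± 0.07 in the edited line and 0.71 ± 0.07 in wild type on the log2 scale. GORASP2, a stacking protein, fell in both lines (log2 fold change -1.03 ± 0.07 in edited cells and -0.44 ± 0.07 in wild type), as did COG3, a subunit of the tethering complex (-0.96 ± 0.08 and -0.59 ± 0.08). COG2, another subunit (-0.52 ± 0.06 and -0.79 ± 0.06), and GOLPH3, which retains Golgi enzymes (-0.51 ± 0.06 and -0.75 ± 0.06), also fell in both. In untreated cells 12 of the 20 were higher (60%, beside 14.3% of all genes) and 4 lower (20%, beside 17.5%) in the edited line, led by the golgins GOLGA2 (0.74 ± 0.06) and GOLGA3 (0.65 ± 0.07).

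Of 9 trimming mannosidases and glucosidases, which prepare N-glycans for the MGAT enzymes, 4 rose (44.4%) and 1 fell (11.1%) in each line with TGFβ. Of all genes 32.1% rose and 30.7% fell in the edited line, and 30.8% rose and 30.9% fell in wild type. The genes were not all the same. GANAB fell and MAN1C1 rose in the edited line alone, and MAN1A1 fell and MAN2A2 rose in wild type alone. MAN1C1 rose in the edited line (2.05 ± 0.41), against 0.35 ± 0.41 in wild type, which did not pass the test. MAN1A1 had 0.12 ± 0.10 in the edited line, which did not pass, and fell in wild type (-0.76 ± 0.10). Of 4 sialidases and fucosidases, which remove sugars, 2 rose and 1 fell in the edited line, and 1 rose and 1 fell in wild type. The shares of all genes given above stand beside these counts too, and so few genes say nothing particular of the list. FUCA1 rose by 0.69 ± 0.09 (edited) and 0.69 ± 0.09 (wild type), and FUCA2 fell, at -0.59 ± 0.07 and -0.73 ± 0.07.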
